A study of Mus musculus with 8 samples.

Results

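The endothelin system described here comprises 7 genes: the ligand genes Edn1, Edn2 and Edn3, the receptor genes Ednra and Ednrb, and the converting enzyme genes Ece1 and Ece2. They were taken by gene symbol from a table of 51886 genes, and all 7 were present. Granulosa cells were sequenced from knockout animals of a strain named PGR-A KO, after isoform A of the progesterone receptor (4 libraries, called PGR-A KO here), and from wild-type animals of the same strain (4 libraries, WT). All mice were 21 to 27 days old, received 5 IU of eCG and, 46 h later, 5 IU of hCG, and were killed 8 h after hCG. eCG drives follicle growth and hCG triggers ovulation, so all 8 libraries are of the peri-ovulatory stage, and neither untreated cells nor a later time were part of the comparison. Each library was made from poly(A) RNA of cells pooled from 2 to 3 mice, so that a replicate is a pool and the spread between replicates is the spread between pools. The labels do not state how the isoform was removed or the genetic background, nor whether pools shared a litter.

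Endothelins are short peptides cut from longer precursors. Proprotein convertases of the furin type release an inactive intermediate, big endothelin, which endothelin-converting enzymes, membrane metallopeptidases encoded by Ece1 and Ece2, turn into the active peptide. The peptides act on the G protein-coupled receptors EDNRA and EDNRB, of which EDNRA is best known for contraction of smooth muscle and prefers the peptides of Edn1 and Edn2 over that of Edn3. In rodent ovaries, granulosa cells are known to express Edn2 for a short time just before the follicle ruptures, mice lacking the progesterone receptor are known to have little of it, and EDNRA in the muscle-containing follicle wall is linked to contraction at ovulation.

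For the 3 ligand genes, the stretch that becomes the active peptide is printed here to show what each transcript encodes. The stretch was found in the coding sequence of the longest protein-coding transcript in GENCODE M21 (mm10) by the spacing of its 4 cysteine codons and its last tryptophan codon, and lies in exon 2 of each gene. It covers chr13:42303649-42303711 for Edn1, chr4:120161951-120162013 for Edn2 and chr2:174761749-174761811 for Edn3, all on the plus strand. Capitals mark the bases that are not the same in all 3 genes.
Edn1: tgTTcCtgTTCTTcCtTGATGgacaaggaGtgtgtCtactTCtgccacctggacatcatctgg
Edn2: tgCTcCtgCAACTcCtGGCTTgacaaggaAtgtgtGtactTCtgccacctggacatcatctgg
Edn3: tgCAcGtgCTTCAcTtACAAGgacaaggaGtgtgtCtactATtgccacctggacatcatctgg
Of these 63 bases, 45 were the same in all 3 genes. Edn1 and Edn2 shared 53 bases (84.1%) and 18 of the 21 amino acids they encode. Edn3 shared 50 bases with Edn1 and 48 with Edn2, and 15 amino acids with each. All 15 amino acids that Edn3 shares with the others are shared by all 3.

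The libraries held granulosa cell markers together with markers of other cells, some of them at comparable levels. All 10 granulosa markers were above the filter described next, from Cyp19a1 at a mean of 33.8 TPM to Inha, the inhibin alpha subunit, at 3808 TPM. TPM is a transcript share per length scaled to a fixed total in each library, so that levels of different genes can be set side by side, but the depth of sequencing behind a value is unknown. Markers of oocytes, erythroid cells, theca, stroma, smooth muscle, endothelium, macrophages and surface epithelium were all detected, and 0 of them were listed at 0 in any library. Some were as high as granulosa markers. The erythroid gene Hbb-bs averaged 2115 TPM, and the oocyte gene Gdf9 averaged 222 TPM. The part of these other cells in the levels of the members was not tested. Pairwise correlations of log2 values lay between 0.97 and 0.991. Pgr, the progesterone receptor gene itself, stood at 2.96 ± 0.658 TPM in PGR-A KO and 1.15 ± 0.396 TPM in WT (SD, n = 4 each), and this single value per gene does not separate the isoforms, so it does not check the knockout. In bulk RNA, fewer cells of a type and less RNA per cell cannot be told apart.

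The converting enzyme gene Ece1 was far above the other 6 genes, and Edn3 far below them. Averaged over all 8 libraries, Ece1 stood at 482 ± 89.3 TPM, Ednra at 27.0 ± 4.10 TPM, Edn2 at 13.0 ± 6.56 TPM, Edn1 at 4.41 ± 1.63 TPM, Ece2 at 3.07 ± 0.698 TPM, Ednrb at 2.00 ± 0.364 TPM and Edn3 at 0.219 ± 0.0717 TPM (SD, n = 8). Ece1 ranked 231 among the 51886 genes by mean level, and 98.4% of the genes above the filter had a lower mean. The ranges of Ece1 and Ednra did not overlap, nor did those of Ednrb and Edn3. The neighbours between them in this order overlapped. Ednra exceeded Edn2 in 7 of 8 libraries, Edn2 exceeded Edn1 in 7 of 8, Edn1 exceeded Ece2 in 7 of 8, and Ece2 exceeded Ednrb in 8 of 8.

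**Figure D1:**
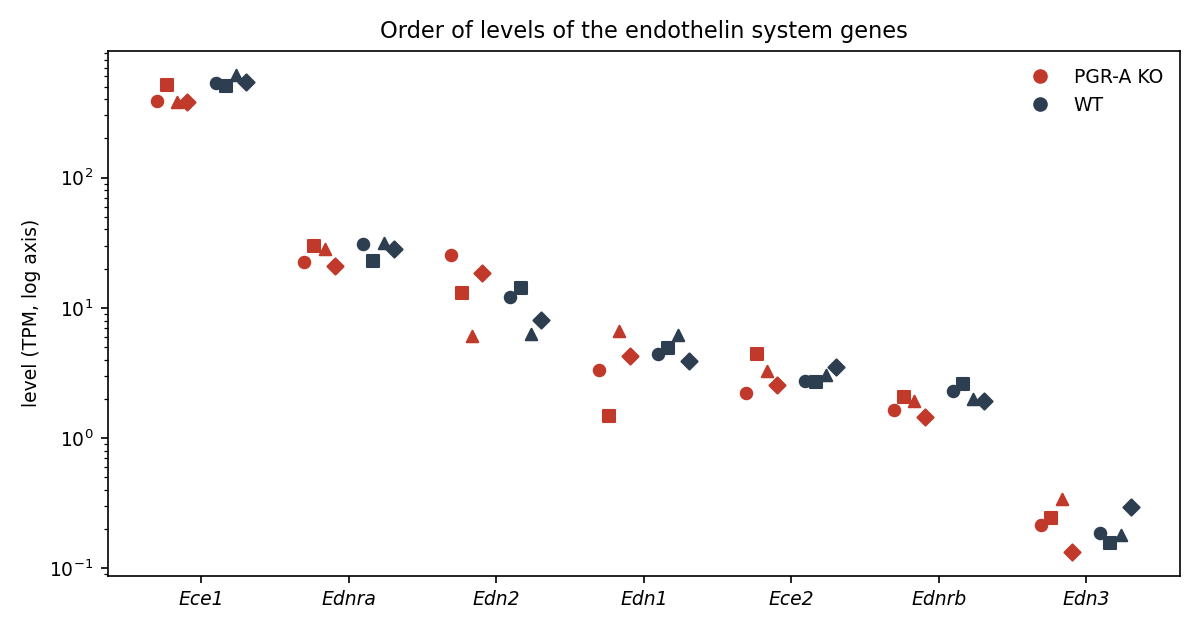
Levels of the 7 genes on a log axis of TPM, ordered by their mean over the 8 libraries; each point is a library, with PGR-A KO to the left (red) and WT to the right (dark) and the marker shape giving replicate 1 (circle), 2 (square), 3 (triangle) and 4 (diamond). Ece1 lies between 380.3 and 618 TPM in every library, whereas no other member exceeds 31.4 TPM.

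Ednra supplied most of the receptor transcripts and Ece1 most of the enzyme transcripts in every library, whereas the ligand transcripts were shared between Edn2 and Edn1. Among receptors, Ednra exceeded Ednrb by 13.7 to 14.6 times in PGR-A KO libraries and by 8.74 to 15.6 times in WT libraries. The lowest ratio, 8.74, was that of WT replicate 2. Among converting enzymes, Ece1 exceeded Ece2 by 114 to 175 times in PGR-A KO and by 155 to 201 times in WT. Among ligands, Edn2 made up 46.4% to 88.4% of the summed ligand TPM in PGR-A KO and 49.8% to 73.6% in WT, and Edn3 made up at most 2.62% in any library. The summed ligand level was 13.1 to 28.9 TPM in PGR-A KO and 12.4 to 19.4 TPM in WT.

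The comparison of genotypes asked whether loss of PGR-A changes these transcripts. None of the 6 members that passed the filter (1 TPM or more in 4 or more libraries) differed between genotypes past the threshold. They were tested with limma on log2(TPM + 1) in a fit of 14472 genes, with a Benjamini-Hochberg adjusted p under 0.05 as the threshold. Over all genes 0.0138% passed, and the members' adjusted p ran from 0.636 to 0.988. Of the 6, 2 had a higher and 4 a lower mean log2 level in PGR-A KO, against 57.4% of all genes with a lower one. Their median log2 change, PGR-A KO minus WT, was -0.19, beside -0.023 over all genes tested. Edn3, the seventh member, was under the filter.

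**Figure D2:**
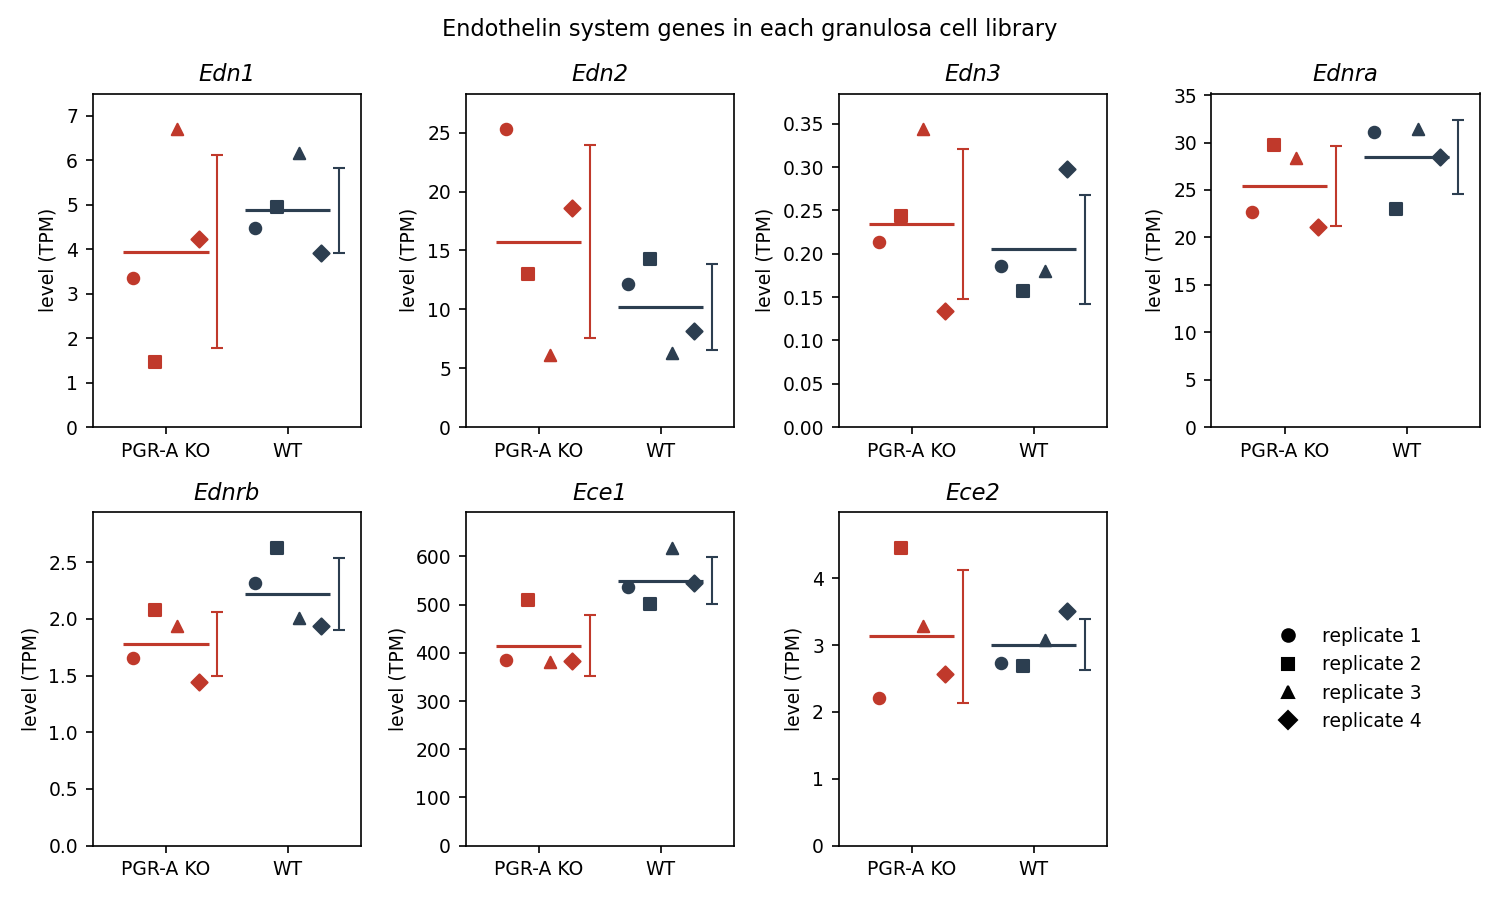
Level in TPM of each of the 7 genes in the 4 PGR-A KO libraries (left, red) and the 4 WT libraries (right, dark), each panel starting at 0; horizontal lines are means, bars are ± 1 SD, and marker shapes are replicates. The groups overlap in all 7 panels, least in Ece1, where only PGR-A KO replicate 2 (509.9 TPM) lies above the lowest WT library (501 TPM).

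Edn2, the ligand gene known from granulosa cells, had a higher mean in PGR-A KO but a spread that exceeded the difference. This holds for 8 h after hCG only, as Edn2 levels at other times were not measured. Edn2 stood at 25.3, 13.0, 6.09 and 18.6 TPM in PGR-A KO replicates 1 to 4, against 12.2, 14.3, 6.28 and 8.15 TPM in WT replicates 1 to 4. The highest library, PGR-A KO replicate 1, and the lowest, PGR-A KO replicate 3, were both knockouts, and the WT libraries lay between them. The means were 15.8 ± 8.16 TPM in PGR-A KO and 10.2 ± 3.65 TPM in WT (SD, n = 4 each). The log2 change was 0.49 (SE 0.39), with a 95% interval from -0.39 to 1.36 (limma adjusted p = 0.867). On the scale of TPM + 1 this interval spans 0.762 to 2.57 times the WT level. The exact permutation p, 2-sided and from all 70 ways to assign the libraries, was 0.371. A single library moved the value: the log2 change was 0.85 without PGR-A KO replicate 3 (limma unadjusted p = 0.017, adjusted p = 0.39) and 0.22 without PGR-A KO replicate 1 (limma unadjusted p = 0.571), and 0.30 without WT replicate 3. Edn2 (ENSMUSG00000028635.7) lies at chr4:120161206-120167360 on the plus strand of mm10, has 1 annotated transcript and overlaps no other annotated gene.

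Edn2 was among the most variable genes between pools of the same genotype. Its SD within genotypes was 0.67 on the log2 scale, above that of 98.3% of the genes tested. The highest library exceeded the lowest by 4.15 times. The 3 lowest libraries, PGR-A KO replicate 3, WT replicate 3 and WT replicate 4, held 6.09 to 8.15 TPM of Edn2, and the other 5 libraries held 12.2 to 25.3 TPM. The same 3 libraries were the lowest in 10.6% of all genes tested, so the order is shared with many genes and is not particular to Edn2.

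Genes known to act on Edn2 in the ovary included several with that same order. Of the 6 such genes tested, Hif1a, Arnt and Lhcgr had the same 3 lowest libraries as Edn2. For Arnt this was nearly a tie, with 35.56 TPM in WT replicate 3 and 35.63 TPM in WT replicate 2. Hif1a, the oxygen-regulated subunit of hypoxia-inducible factor, held 137 to 140.5 TPM in those 3 libraries and 190.0 to 207 TPM in the other 5. Lhcgr, the receptor through which hCG acts, held 46.4 to 76.0 TPM in those 3 and 104 to 153 TPM in the other 5. Cyp11a1, the enzyme that starts steroid synthesis, held 373 to 524 TPM and 855 to 993 TPM. Star, which brings cholesterol to it, held 484 to 588 TPM and 802 to 1107 TPM. Both belong to the granulosa marker list, of which 4 of 10 genes had this order. Lhcgr is among these 4, as is Fshr, which was nearly tied (at most 48.0 TPM against at least 48.1 TPM). Amh of the same list ran the other way, at 265.8 to 362 TPM in those 3 libraries and 147.4 to 257.6 TPM in the other 5. The part of these genes, and of the cell content of the pools, in the spread of Edn2 was not tested.

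By genotype, 0 of the 6 regulators passed the threshold, with 2 higher and 4 lower on average in PGR-A KO and a median log2 change of -0.035. Pgr had the lowest p of the 6 (log2 change 0.88, SE 0.18, limma unadjusted p = 0.000708, adjusted p = 0.445), higher in all 4 PGR-A KO libraries (2.01 to 3.52 TPM) than in all 4 WT libraries (0.756 to 1.56 TPM). Epas1, a hypoxia-inducible factor subunit related to Hif1a, held 117, 98.1, 81.6 and 95.7 TPM in PGR-A KO replicates 1 to 4, against 205, 149.6, 134 and 124 TPM in WT replicates 1 to 4. The groups did not overlap for Pgr or Epas1, as in 3.42% of all genes tested. For Epas1 the log2 change was -0.62 (SE 0.16, limma unadjusted p = 0.0041, adjusted p = 0.636). Pparg, a nuclear receptor known in mice as a progesterone receptor target upstream of Edn2, held 59.6 to 88.0 TPM in PGR-A KO and 76.3 to 116 TPM in WT (log2 change -0.28, limma adjusted p = 0.807). Hif1a was the most abundant of the list, at 187 ± 31.1 TPM in PGR-A KO and 168 ± 35.02 TPM in WT (SD, n = 4 each; limma adjusted p = 0.909).

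The bases before the start of Edn2 are shown because the progesterone receptor and hypoxia-inducible factors are the regulators best known for this gene. RefSeq on GRCm38.p6 places the 250 bases before its start at chr4:120160956-120161205 on the plus strand. Capitals mark matches to GCGTG on either strand.
Edn2: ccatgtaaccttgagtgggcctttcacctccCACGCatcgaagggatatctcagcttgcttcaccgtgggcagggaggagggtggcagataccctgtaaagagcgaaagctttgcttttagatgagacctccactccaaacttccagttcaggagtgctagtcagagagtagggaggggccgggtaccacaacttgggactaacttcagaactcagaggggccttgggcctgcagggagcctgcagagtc
Both strands were searched for 4 motifs. The steroid receptor element, GNACA and TGTNC with 3 bases between them, had 0 matches, as did the shorter TGTTCT. Among 32851 such windows of RefSeq, 0.387% hold the element and 16.1% hold TGTTCT. Of the hypoxia element cores, ACGTG had 0 matches and GCGTG had 1, found in 16.6% and 28.2% of windows. TGTTCT can lie inside the element, and the cores can overlap each other on opposite strands.

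Edn1, the ligand gene best known from endothelial cells, was lower on average in PGR-A KO, again within the spread. Edn1 stood at 3.36, 1.47, 6.70 and 4.24 TPM in PGR-A KO replicates 1 to 4, against 4.47, 4.95, 6.15 and 3.91 TPM in WT replicates 1 to 4. The extremes were once more knockout libraries, replicate 3 above and replicate 2 below all WT libraries. The means were 3.94 ± 2.17 TPM in PGR-A KO and 4.87 ± 0.955 TPM in WT (SD, n = 4 each). The log2 change was -0.35 (SE 0.30, 95% interval -1.03 to 0.33, limma adjusted p = 0.883), and the exact permutation p was 0.429. It was -0.60 without PGR-A KO replicate 3 (limma unadjusted p = 0.0416, adjusted p = 0.451) and -0.054 without PGR-A KO replicate 2 (limma unadjusted p = 0.806). The within-genotype SD of Edn1, 0.509 on the log2 scale, was above that of 96.5% of genes tested.

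The 2 main ligands did not follow the same library order. PGR-A KO replicate 3 and WT replicate 3 had the highest Edn1 and the lowest Edn2 levels of all 8 libraries. The ratio of Edn2 to Edn1 was 7.54, 8.88, 0.91 and 4.39 in PGR-A KO replicates 1 to 4, against 2.72, 2.88, 1.02 and 2.08 in WT replicates 1 to 4. Edn2 was therefore the main ligand transcript in 7 libraries, and in PGR-A KO replicate 3 Edn1 was slightly above it.

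**Figure D3:**
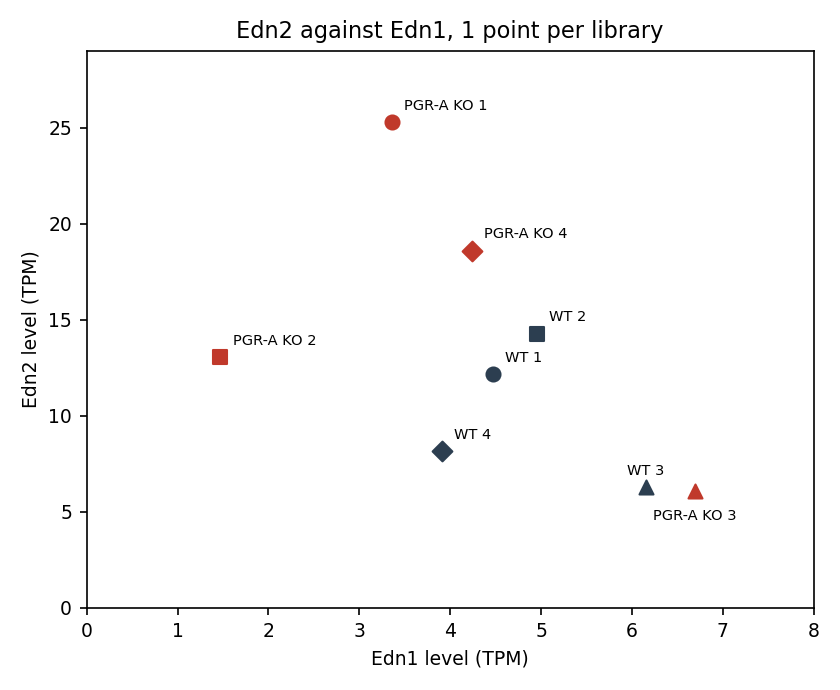
Edn2 level against Edn1 level, both in TPM, with 1 point per library (PGR-A KO red, WT dark; number and marker shape give the replicate). PGR-A KO replicate 3 and WT replicate 3 lie at the lower right, with 6.70 and 6.15 TPM of Edn1 and 6.09 and 6.28 TPM of Edn2, and PGR-A KO replicate 1 lies highest, at 25.3 TPM of Edn2.

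PGR-A KO replicate 3 and WT replicate 3, the highest in Edn1, were also highest in the smooth muscle marker sum. They were not high in the endothelial sum. The summed level of the 9 smooth muscle and pericyte markers, led by Acta2, ran from 66.6 to 98.1 TPM in PGR-A KO and from 66.5 to 109 TPM in WT. Its highest values were in PGR-A KO replicate 3 and WT replicate 3. Not all of its markers had this order. Rgs5, under the filter, was lowest of each genotype in these libraries, at 0.646 and 0.689 TPM. Notch3, also under the filter, was lowest among PGR-A KO libraries in replicate 3. Of the tested markers, Des was highest in PGR-A KO replicate 2 and WT replicate 4 of their genotypes. Actg2 was highest among PGR-A KO libraries in replicate 1. The summed level of the 8 blood endothelial markers, led by Cdh5, ran from 16.5 to 28.9 TPM in PGR-A KO and from 21.3 to 42.8 TPM in WT. It was lowest among PGR-A KO libraries in replicate 3. The highest endothelial sums, 42.8 and 37.2 TPM, were those of WT replicates 2 and 1. Those libraries came next in Edn1, at 4.95 and 4.47 TPM. The summed level of the 6 macrophage markers, led by Lyz2, ran from 47.7 to 102 TPM in PGR-A KO and from 75.2 to 103 TPM in WT, and was highest in replicate 3 among PGR-A KO libraries but not among WT ones. Replicate 3 was also the highest library of each genotype in the oocyte marker sum (1144 TPM in PGR-A KO, 879 TPM in WT) and in the erythroid one (3735 TPM in PGR-A KO, 6789 TPM in WT). The part of these cells in the Edn1 values was not tested.

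Edn3, a ligand known for neural crest development, was barely detected in either genotype. Edn3 stood at 0.214, 0.243, 0.344 and 0.134 TPM in PGR-A KO replicates 1 to 4, against 0.186, 0.157, 0.180 and 0.298 TPM in WT replicates 1 to 4. The groups overlapped, with means of 0.234 ± 0.0865 TPM in PGR-A KO and 0.205 ± 0.0630 TPM in WT (SD, n = 4 each; exact permutation p = 0.6). Edn3 (ENSMUSG00000027524.9) lies at chr2:174760619-174784042 and Edn1 (ENSMUSG00000021367.8) at chr13:42301476-42307990, both on the plus strand.

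Ednra, the receptor gene linked to contraction, was the second most abundant member and did not differ past the threshold. Ednra stood at 22.6, 29.7, 28.4 and 21.1 TPM in PGR-A KO replicates 1 to 4, against 31.1, 22.98, 31.4 and 28.5 TPM in WT replicates 1 to 4. The low libraries were replicate 2 of WT and replicates 1 and 4 of PGR-A KO, and the groups overlapped. The means were 25.4 ± 4.22 TPM in PGR-A KO and 28.5 ± 3.90 TPM in WT (SD, n = 4 each). The log2 change was -0.16 (SE 0.14, limma adjusted p = 0.878, exact permutation p = 0.229). Its 95% interval, on the scale of TPM + 1, was 0.722 to 1.11 times the WT level. The log2 change was -0.26 without WT replicate 2 and -0.079 without PGR-A KO replicate 4. Ednra (ENSMUSG00000031616.7) lies at chr8:77663031-77724464 on the minus strand. A transcript on the opposite strand, 4933431K23Rik, overlaps it and was listed at 2.60 to 8.53 TPM. Whether the quantification used strand is not given in the sources used here.

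Ednrb, the receptor gene that accepts all 3 peptides about equally, was low in all libraries. Ednrb stood at 1.66, 2.08, 1.94 and 1.45 TPM in PGR-A KO replicates 1 to 4, against 2.32, 2.63, 2.01 and 1.93 TPM in WT replicates 1 to 4. PGR-A KO replicates 1 and 4 lay below all WT libraries, and the other 2 lay within the WT range. The means were 1.78 ± 0.283 TPM in PGR-A KO and 2.22 ± 0.317 TPM in WT (SD, n = 4 each). The log2 change was -0.21 (SE 0.12, limma adjusted p = 0.807, exact permutation p = 0.143). Its 95% interval, on the scale of TPM + 1, was 0.713 to 1.04 times the WT level. With a pseudocount of 0.1 in place of 1 the log2 change was -0.31. Ednrb (ENSMUSG00000022122.15) lies at chr14:103814625-103844402 on the minus strand.

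Ece1, which encodes the main endothelin-converting enzyme, had the clearest genotype difference of the members and was lower in PGR-A KO without passing the threshold. Ece1 stood at 385.7, 509.9, 380.3 and 382 TPM in PGR-A KO replicates 1 to 4, against 536, 501, 618 and 544 TPM in WT replicates 1 to 4. PGR-A KO replicates 1, 3 and 4 lay close together below all WT libraries, while PGR-A KO replicate 2 lay just above WT replicate 2. The means were 415 ± 63.6 TPM in PGR-A KO and 549.6 ± 49.2 TPM in WT (SD, n = 4 each), a ratio of 75.4%. The log2 change was -0.41 (SE 0.11), with a 95% interval of 0.63 to 0.895 times the WT level of TPM + 1. Its limma unadjusted p of 0.00497 was the 107th lowest of 14472, its adjusted p was 0.636, and the exact permutation p was 0.0571, where 0.0286 is the smallest this design allows.

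Ece1 was the only member of the 6 with an unadjusted limma p under 0.05, a level that 6.31% of all genes reached, 5.33% in the lower direction. Those 913 genes were 141 higher and 772 lower in PGR-A KO. With TMM scaling factors 858 genes reached this level, 329 higher and 529 lower. The lower direction of Ece1 is thus also that of most such genes. With TMM factors its log2 change was -0.38 (limma unadjusted p = 0.0023) and with quantile normalization -0.43 (0.00207). With each library left out in turn it ran from -0.52 to -0.36, and its unadjusted p stayed under 0.05 and its adjusted p above 0.05 in all 17 alternatives.

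Endothelial cells are a known site of Ece1. The summed endothelial marker level was lower on average in PGR-A KO (28.7, 28.9, 16.5 and 22.8 TPM in replicates 1 to 4) than in WT (37.2, 42.8, 23.2 and 21.3 TPM in replicates 1 to 4), the same direction as Ece1. Of the 6 endothelial markers tested, 4 had a lower and 2 a higher mean log2 level in PGR-A KO. Cdh5 made up most of the difference in the sum, with averages of 10.7 TPM in PGR-A KO and 16.6 TPM in WT. Pecam1 (4.74 against 4.55 TPM) and Kdr (3.01 against 2.54 TPM) were higher in PGR-A KO. Within PGR-A KO the libraries had the same order in Ece1 and in the endothelial sum, with replicate 2 highest and replicate 3 lowest. This order rests in part on small gaps. Ece1 lay between 380.3 and 385.7 TPM in replicates 1, 3 and 4, and the endothelial sums of replicates 1 and 2 were 28.7 and 28.9 TPM. Within WT the orders differed: Ece1 was highest in replicate 3 and lowest in replicate 2, where the endothelial sum was highest. The part of these cells in the Ece1 values was not tested. The granulosa marker sum ran from 4738 to 6888 TPM in PGR-A KO and from 5703 to 7807 TPM in WT. Ece1 (ENSMUSG00000057530.14) lies at chr4:137862237-137965229 on the plus strand and has 4 start windows in RefSeq, which a gene-level value cannot separate. The antisense gene Gm13012 overlaps it and was listed at no more than 0.0827 TPM.

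Ece2, the second converting enzyme gene, best known from neural tissue, was low and its difference was close to 0. Ece2 stood at 2.21, 4.45, 3.28 and 2.57 TPM in PGR-A KO replicates 1 to 4, against 2.74, 2.69, 3.07 and 3.51 TPM in WT replicates 1 to 4. PGR-A KO replicates 1 and 2 were the lowest and the highest of all libraries. The means were 3.13 ± 0.990 TPM in PGR-A KO and 3.00 ± 0.381 TPM in WT (SD, n = 4 each). The log2 change was 0.020 (SE 0.17, limma adjusted p = 0.988, exact permutation p = 0.914). Its 95% interval, on the scale of TPM + 1, was 0.779 to 1.32 times the WT level. The sign of the change turned when replicate 2 or 3 of PGR-A KO, or replicate 1 or 2 of WT, was left out. Ece2 (ENSMUSG00000022842.18) lies at chr16:20629828-20646485 on the plus strand, where a protein-coding gene of the same strand, Gm49333, overlaps it. Gm49333 was listed at 0 in all 8 libraries. It also spans the upstream neighbour Eef1akmt4, which does not overlap Ece2 and was listed at 6.93 to 9.76 TPM. How reads shared at this locus were divided makes the Ece2 level uncertain.

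**Figure D4:**
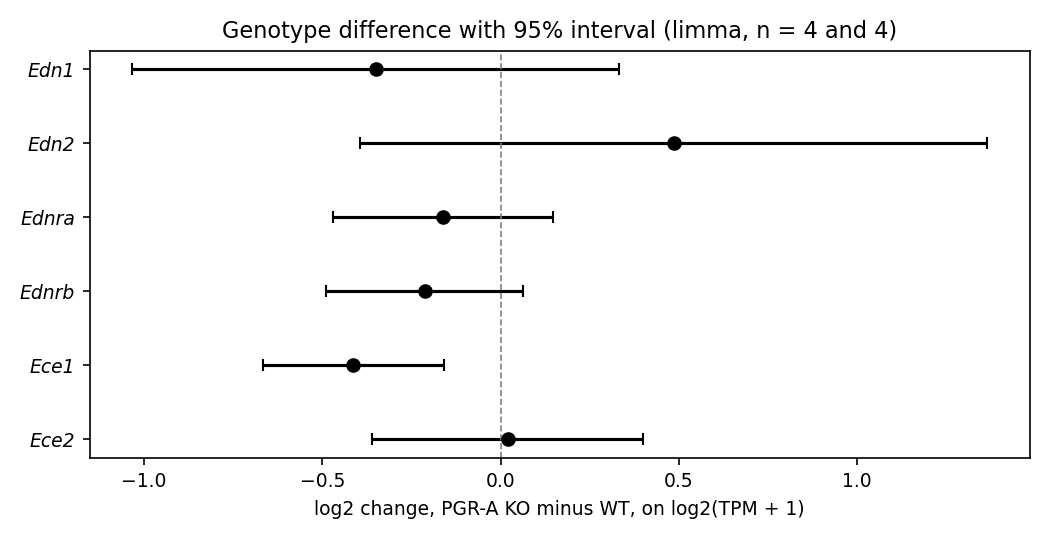
Log2 change between genotypes (PGR-A KO minus WT, on log2(TPM + 1)) of the 6 members that passed the filter, with 95% intervals from limma, n = 4 libraries in each group. The interval of Ece1 lies below 0, from -0.67 to -0.16, before adjustment over all genes, and those of the other 5 members include 0.

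The genes whose profile over the 8 libraries was nearest to that of each member were found by the root mean square difference of centred log2 values, among genes of at least 5 TPM and of an SD over the libraries no smaller than that of the member divided by 1.5. For Edn2 they were Nrcam, a neuronal adhesion molecule (0.208), Bambi-ps1, a pseudogene by its name (0.225), and F3, tissue factor, which starts blood clotting (0.267), where the SD of Edn2 itself over the 8 libraries is 0.672. F3 ran from 43.1 to 115 TPM and Nrcam from 24.2 to 70.2 TPM, and all 3 were highest in PGR-A KO replicate 1. For Edn1 they were Cdc42ep3, an effector of the GTPase CDC42 (0.139), Prg4, which encodes lubricin (0.14), and Filip1l (0.149). For Ece1 they were Dync1h1, the dynein heavy chain (0.0907), Tmem94 (0.104) and Srp54b, a subunit of the signal recognition particle (0.105). For Ednra they were Fbxo16, Cntrob and Tacc2 (0.0663 to 0.0755), for Ednrb Rnf141, Sec62 and Slc30a9 (0.0588 to 0.0656), and for Ece2 Rad51ap1, Wdhd1 and Tgm2 (0.0915 to 0.0947). These values describe likeness within these 8 libraries.

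Proteases that cut endothelin precursors or degrade the peptides, with their metallopeptidase relatives, held 11 genes, of which 8 were tested, 3 with higher and 5 with lower means in PGR-A KO and 0 past the threshold. Their median log2 change was -0.13. Pcsk5, a proprotein convertase and the most abundant of them, held 201 ± 56.2 TPM in PGR-A KO and 170.5 ± 52.5 TPM in WT (SD, n = 4 each; limma adjusted p = 0.909). Furin itself held 78.8 to 128 TPM in PGR-A KO and 87.7 to 139.5 TPM in WT. Ctsa, a lysosomal carboxypeptidase that can inactivate endothelin 1, had the lowest p, with 85.8 to 98.4 TPM in PGR-A KO and 90.2 to 123 TPM in WT (log2 change -0.26, SE 0.10, limma unadjusted p = 0.0333, adjusted p = 0.783). The unadjusted p of Ctsa was under 0.05 in 3 of the 8 fits with a library left out. Mme, which encodes the peptide-degrading enzyme neprilysin, held 2.14 to 3.82 TPM in PGR-A KO and 3.20 to 5.75 TPM in WT (log2 change -0.42, limma adjusted p = 0.783). Phex, a relative known from bone, held 2.56 to 4.64 TPM in PGR-A KO and 2.70 to 20.7 TPM in WT (log2 change -0.80, limma adjusted p = 0.807). The Phex change was -0.30 without WT replicate 2. Ecel1, Kel and Cma1 were under the filter.

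Signalling genes that act below endothelin receptors held 27 genes, of which 24 were tested, 9 with higher and 15 with lower means in PGR-A KO and 0 past the threshold. Their median log2 change was -0.084. Gnas, a G protein alpha subunit and the most abundant, held 851 ± 83.8 TPM in PGR-A KO and 837 ± 96.5 TPM in WT (SD, n = 4 each; limma adjusted p = 0.974), and its sign turned in 3 of the fits with a library left out. Gnaq, the G protein that links both receptors to calcium release, held 24.2 to 28.8 TPM in PGR-A KO and 27.7 to 37.0 TPM in WT (log2 change -0.20, limma adjusted p = 0.796). Rgs2, which limits Gq signalling, had the lowest p, with 551 to 679 TPM in PGR-A KO and 665 to 947 TPM in WT (log2 change -0.27, limma unadjusted p = 0.0545, adjusted p = 0.783). Mylk, the kinase that starts smooth muscle contraction, held 18.9 to 28.2 TPM in PGR-A KO and 23.2 to 35.9 TPM in WT (log2 change -0.34, limma adjusted p = 0.783).

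Other vasoactive signals held 20 genes, of which 15 were tested, 4 with higher and 11 with lower means in PGR-A KO and 0 past the threshold. Their median log2 change was -0.066. Prkg2, a cGMP-dependent kinase known as progesterone-dependent in mouse ovary, was the most abundant, with 62.4 to 145 TPM in PGR-A KO and 60.7 to 154 TPM in WT (limma adjusted p = 0.921). Nppc, the C-type natriuretic peptide gene, held 9.62, 12.3, 17.2 and 8.06 TPM in PGR-A KO replicates 1 to 4, against 8.83, 82.5, 33.8 and 25.5 TPM in WT replicates 1 to 4. The WT values of Nppc spread most, with WT replicate 2 far above the others (log2 change -1.26, SE 0.55, limma unadjusted p = 0.047, adjusted p = 0.783). Without that library the Nppc change was -0.76 (limma unadjusted p = 0.111), and without WT replicate 1 it was -1.78 (limma unadjusted p = 0.00145). Ace, angiotensin-converting enzyme, held 16.8 to 19.5 TPM in PGR-A KO and 12.5 to 18.8 TPM in WT (log2 change 0.25, limma adjusted p = 0.796). Calcrl, the receptor of adrenomedullin, held 2.11 to 2.85 TPM in PGR-A KO and 2.29 to 4.58 TPM in WT (log2 change -0.30, limma adjusted p = 0.799).

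**Figure D5:**
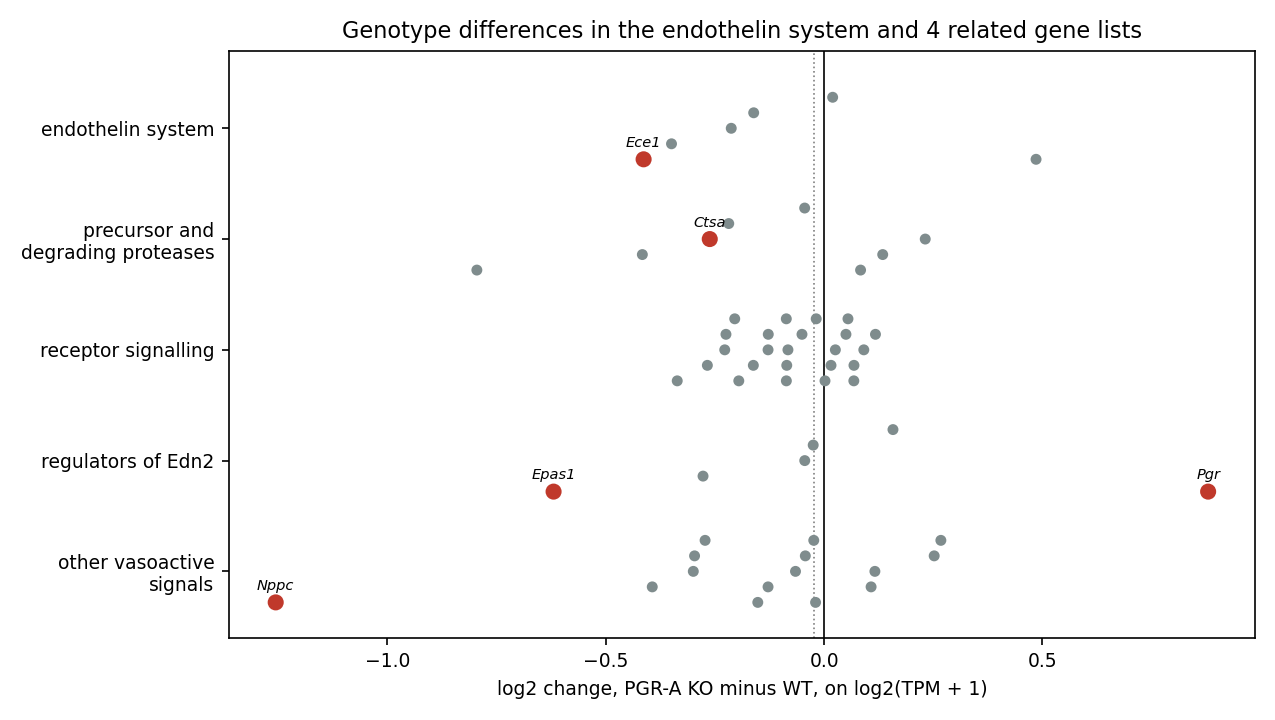
Log2 change between genotypes (PGR-A KO minus WT, on log2(TPM + 1)) for each tested gene of the endothelin system and of 4 related lists; 1 point per gene, spread vertically only for legibility. Large red points have an unadjusted limma p under 0.05 (Ece1, Ctsa, Epas1, Pgr and Nppc), none passes after adjustment over all genes, and the dotted line is the median over all genes tested (-0.023).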

How the data were processed

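A gene table of TPM values was deposited by the authors, 1 row per symbol. FastQC, Salmon, limma and edgeR are named, with build mm10, in the submitters' processing notes, without versions or roles, and neither the annotation nor the way transcripts were summed is given in the sources used here. Groups came from the sample titles. The members and gene lists were chosen with earlier results of these data known, so list counts and medians are descriptions. TPM are not counts, so no count test was run and no counting interval is given.

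The test was limma 3.58.1 in R 4.3.3 on log2(TPM + 1), trend on, no covariate, over the 14472 genes that reached 1 TPM in 4 or more libraries. P-values are 2-sided, adjusted by Benjamini-Hochberg over all genes tested. Changes are PGR-A KO minus WT and understate those of low genes. The script was tested on simulated data. Genes named outside the 7 members were, for each related list, its most abundant member and the 3 of lowest unadjusted p, the most abundant marker of each cell type, and the 3 genes nearest in profile to each member. Furin, Arnt, Lhcgr, Cyp19a1, Cyp11a1, Star, Amh, Fshr, Pecam1, Kdr, Des, Actg2 and the genes under the filter were added after their values were seen. Positions are from GENCODE M21 (mm10), and the bases before gene starts from RefSeq (GRCm38.p6). Alternatives were pseudocounts of 0.1 and 5, a filter at 5 TPM and none, TMM factors computed on the TPM, quantile normalization, limma without trend or robust, a replicate block, and each library left out.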

Additional observations from a re-analysis of the deposited data

Results flagged for a closer look

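Among 46 sets of 4 libraries (a gene in a genotype), 4 had a highest or lowest library well apart from the rest, where chance gives about 2.3. Ece1 in PGR-A KO replicate 2 stood at 509.9 TPM, above the other PGR-A KO libraries, which held at most 385.7 TPM. Pcsk5 in WT replicate 1 stood at 249 TPM, above the other WT libraries, which held at most 149.6 TPM. Phex in WT replicate 2 stood at 20.7 TPM, above the other WT libraries, which held at most 5.73 TPM. Hif1a in PGR-A KO replicate 3 stood at 140.5 TPM, below the other PGR-A KO libraries, which held at least 199 TPM.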

How the results depend on the processing

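The count of members past the threshold, and that of genes of the related lists, was 0 in every alternative run. The direction of Edn2, Ednra and Ece1 held in all 17, and that of Edn1 and Ednrb in the 16 in which they were tested (both are under a filter at 5 TPM). The changes of filter, limma without trend or robust and the replicate block leave a log2 change as it is by construction. Direction could turn only in the other alternatives. Leaving out a single library moved the log2 change by over 1.5 times for 4 of 6 members (not Ednrb or Ece1) and 13 of 16 named genes of the related lists (not Ctsa, Pgr or Epas1). The log2 change of Ece2, 0.020 with all libraries, ranged from -0.12 to 0.13 with a library left out; it was -0.0077, -0.012 and -0.018 without replicate 3 of PGR-A KO and replicates 1 and 2 of WT. That of Gnas, 0.026 with all libraries, ranged from -0.020 to 0.10, and was below 0 without replicate 1 or 2 of PGR-A KO or replicate 2 of WT. The 2 genes past the threshold over the whole table became 1 with a pseudocount of 5, and 0 (without WT replicate 2) to 6 (without PGR-A KO replicate 3) when single libraries were dropped. An unadjusted p under 0.05 was reached by 913 genes, by 1706 of 33251 without the filter, and by 505 to 1832 in the fits that each drop a library. In those fits, members at that level were 1 to 3 and genes of the related lists 2 to 9, against 4 in the related lists with all libraries, 2 with TMM factors and 10 with the replicate block. The titles do not say that same-numbered libraries share a litter or day, so the numbers were not taken as pairs. Such libraries deviated together (r over 0.1) in 2 of 4 pairs, which does not settle whether they are paired. The replicate block changed no call. Its log2 changes, -0.41 for Ece1 and 0.49 for Edn2, equal those of the main fit by construction, and only the p can move. The limma unadjusted p went from 0.243 to 0.07 for Edn2 and from 0.00497 to 0.0106 for Ece1. Genes with an unadjusted p under 0.05 went from 913 to 1368. Without depth, low members such as Edn3 have an unknown counting error.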
